A study of Homo sapiens with 6 samples.

Results

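H3K27ac, the acetylated form of lysine 27 on histone H3, was compared between NCI-H69 (H69), a line of small cell lung cancer (SCLC), and its derivative H69M. The comparison used the H3K27ac peak lists of the samples H69_K27Ac and H69M_K27Ac on chromosomes 1 to 22 and X. They held 38255 peaks in H69 and 51091 in H69M, together 89346 of the 149848 peaks deposited for the series. H69 is an established neuroendocrine SCLC line, and H69M is known in the field as a mesenchymal derivative of it. The labels give no drug or other treatment at the time of harvest for either line and do not say whether H69M is 1 clone. Each line gave 1 H3K27ac library, made by formaldehyde fixation, sonication and precipitation with the Abcam antibody ab4729, and 1 H3K27me3 library. With 1 library per line no difference between the lines has a replicate check, and none was tested. Peaks are given by their hg19 coordinates and were not assigned to genes, so the identity of the lines could not be checked against marker genes.

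H3K27ac is written mainly by the acetyltransferases p300 and CBP and sits on the nucleosomes beside active promoters and enhancers. Promoters active in many cell types tend to carry it in all of them, while enhancers differ more between cell types. Where many enhancers lie close together the mark forms long clusters, which are often found near genes that set cell identity. A lasting change of cell state, such as that from a neuroendocrine to a mesenchymal cell, is generally accompanied by the loss of some enhancers and the appearance of others.

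The first question was how the peaks of the lines correspond. A peak is called kept if the other list has a peak that shares at least 1 bp with it. An H69 peak without such an overlap is called lost and an H69M peak without one gained. These words describe presence in the lists only, and whether a mark is carried by more cells or more strongly by each cell cannot be told apart in these bulk libraries. In H69, 8623 peaks were lost, 22.5% of the list (exact 95% binomial interval 22.1 to 22.96). In H69M, 24739 were gained, 48.4% of the list (47.99 to 48.9). The intervals cover counting error only and treat neighbouring peaks as independent, which they are not. Lost peaks held 6.56 Mb, or 13.6% of the length covered in H69. Gained peaks held 25.03 Mb, or 32.6% of the length covered in H69M. The classes that were not kept were thus smaller in length than in number, because their peaks were narrow.

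Kept peaks did not always match 1 to 1. Pairs in which each peak overlapped only the other numbered 21822, which is 57.04% of the H69 list and 42.7% of the H69M list. Of the kept H69M peaks, 3323 (12.6%, 12.2 to 13.02) overlapped 2 or more H69 peaks, and 583 of them overlapped 3 or more. The reverse was rarer, with 783 kept H69 peaks (2.64%, 2.46 to 2.83) overlapping 2 or more H69M peaks. In all, 7380 kept H69 peaks (24.9%) overlapped an H69M peak that also overlapped another H69 peak. The same asymmetry appeared in the short gaps between neighbouring peaks. Of 7964 gaps of up to 1000 bp between H69 peaks, a single H69M peak bridged 3864 (48.5%, 47.4 to 49.6), whereas H69 peaks bridged 798 of 10908 such gaps in H69M (7.32%, 6.83 to 7.82). With equal numbers of peaks, taking the 38255 highest scoring H69M peaks, the bridged shares were 47.5% and 7.34%. H3K27ac in H69M was therefore more often listed as 1 continuous stretch where H69 had pieces. Taking the highest scores leaves the widths of the remaining H69M peaks unchanged, so the equal-number shares cannot show what part depth or peak width has in this.

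Width separated the classes within each list. The median width was 637 bp (quartiles 539 and 839.5) for lost peaks and 1145 bp (736.75 and 1763) for the kept peaks of H69. It was 808 bp (622 and 1160.5) for gained peaks and 1673 bp (1102 and 2364) for the kept peaks of H69M. Gained peaks were wider than lost peaks, but both lay below the kept peaks of either line. Peaks of 2000 to under 4000 bp were kept in 97.01% of cases in H69 and 82.9% in H69M. Peaks under 500 bp were kept in 52.96% and 12.4%. A wider peak also has more room to meet the 1 bp rule.

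**Figure D1:**
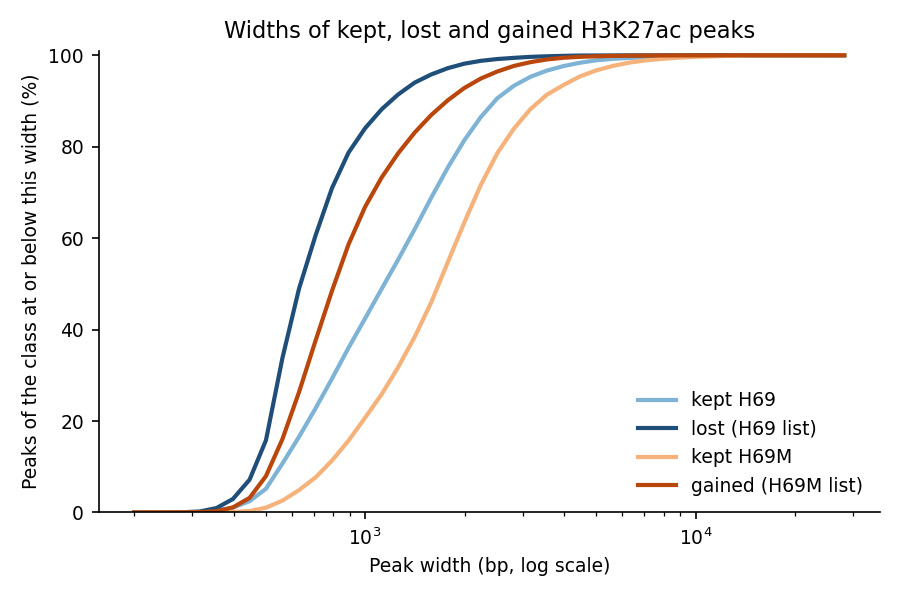
Cumulative share of peaks (vertical axis, percent) against peak width (horizontal axis, bp, log scale) for the 29632 kept and 8623 lost peaks of H69 and the 26352 kept and 24739 gained peaks of H69M. The lost and gained curves rise first, with medians of 637 and 808 bp, and the kept peaks of H69M lie farthest to the right with a median of 1673 bp.

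The deposited lists give each peak a score, whose definition is not given in the sources used here. It starts at 50.01 in H69 and 50 in H69M and piles up at a ceiling of 3100, so peaks at or above 3100 cannot be ranked by it. The score is the authors' own value and describes peaks within a list. It may not mean the same in both lists. The median score was 78.1 for lost and 374 for kept peaks of H69, and 109 for gained and 896 for kept peaks of H69M. Of the lost peaks 66.03% had a score under 100, 28.1% a score from 100 to under 300, and 5.86% in all a score of 300 or more. Of the gained peaks 45.6% had a score under 100, 36.2% from 100 to under 300 and 18.1% a score of 300 or more. Losses were thus nearly all weak peaks, while gains reached into the middle of the score range.

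At scores from 300 to under 1000 the lists differed widely. H69 lost 447 of 7131 peaks there and kept 93.7% (93.1 to 94.3), while 3605 of 9688 H69M peaks were gained and 62.8% kept (61.8 to 63.8). From 1000 to under 3100, 54 of 6034 H69 peaks were lost and 792 of 7459 H69M peaks gained. At 3100 or above, 4 of 3417 H69 peaks were lost and 90 of 6023 H69M peaks gained. The order stayed the same with equal peak numbers, which took away all H69M peaks with a score under 92.3. The lost peaks then numbered 668 from 300 to under 1000, 94 from 1000 to under 3100 and 4 at the ceiling, and the gained peaks of these classes were unchanged in number, since every peak left out lay below them.

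**Figure D2:**
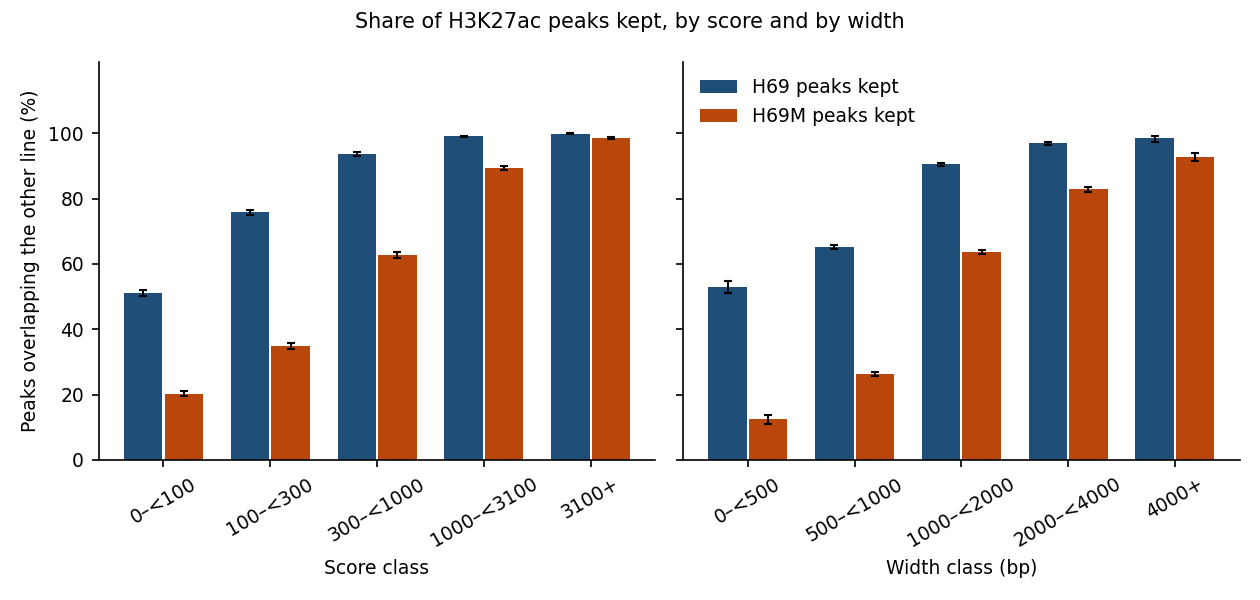
Percent of peaks that overlapped the other line, by score class (left) and by width class in bp (right), with dark blue bars for H69 and orange bars for H69M. Error bars are exact 95% binomial intervals for counting error only. In every class the H69 bar is higher, with 93.7% against 62.8% at scores from 300 to under 1000.

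Score and width were not interchangeable. Below a score of 100, kept peaks were slightly wider than the others, with medians of 590 bp for kept and 567 bp for lost peaks in H69 and 694.5 bp for kept and 632 bp for gained peaks in H69M. From 100 to under 300 the medians were 862 bp for kept and 869.5 bp for lost peaks in H69. In H69M they were 1043 bp for kept and 928 bp for gained peaks. From a score of 300 upward the order was the opposite in both lines. From 300 to under 1000 the medians were 1324 bp for kept and 1519 bp for lost peaks in H69, and 1543 bp for kept and 1581 bp for gained peaks in H69M. From 1000 to under 3100 the 792 gained peaks had a median width of 2643 bp (quartiles 2030 and 3307) against 1959 bp (1603.5 and 2552.5) for the 6667 kept H69M peaks. In the same class the 54 lost peaks had a median of 2304.5 bp against 1763 bp for the 5980 kept H69 peaks. At the ceiling the 90 gained peaks had a median of 4127.5 bp and the 5933 kept H69M peaks one of 2689 bp. Strong peaks found in 1 line only were thus broader than equally scored peaks found in both.

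Read the other way, strong compact peaks were the ones most regularly present in both lines. Among H69M peaks with scores from 1000 to under 3100, 94.8% of the 3581 peaks of 1000 to under 2000 bp were kept (94.03 to 95.5). The share was 84.4% for the 3380 peaks of 2000 to under 4000 bp (83.2 to 85.6) and 81.4% for the 393 peaks of 4000 bp or more (77.2 to 85.1). At scores from 100 to under 300 the trend ran upward with width, from 28.97% of the 7263 peaks of 500 to under 1000 bp to 41.9% of the 6053 peaks of 1000 to under 2000 bp. In H69 peaks with scores from 1000 to under 3100 were kept so fully that width left little room, with 99.5% kept at 1000 to under 2000 bp and 97.8% at 4000 bp or more. From 300 to under 1000 the H69 share fell from 95.8% at 500 to under 1000 bp (94.6 to 96.7) to 90.4% at 2000 to under 4000 bp (88.3 to 92.2). In H69M this score class had no steady trend, with 57.01%, 65.1% and 58.7% kept at 500, 1000 and 2000 bp upward.

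The pairs that matched 1 to 1 show how the same site differed in extent. The median width was 1221 bp in H69 and 1590 bp in H69M, and the median ratio within pairs was 1.20 (quartiles 1.02 and 1.51). The H69M peak was the wider one in 16943 of the 21822 pairs (77.6%, 77.1 to 78.2). It was at least 1.5 times as wide in 5539 pairs, 25.4% of all, and the H69 peak was at least 1.5 times as wide in 812, 3.72% of all. In 12277 pairs (56.3%) the H69 peak lay wholly inside the H69M peak, in 2416 (11.1%) the H69M peak lay inside the H69 peak, and in 7129 (32.7%) each reached beyond the other. The H69M peak reached farther by a median of 113 bp at the lower-coordinate end and 110 bp at the other end, so neither side was favoured over all pairs. The centres differed by a median of 100 bp, which is nearly as much, so within a pair the ends usually moved by unequal lengths.

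The width ratio depended on the mean score of the pair, taken as the geometric mean of both scores. It was 1.17 in the 2134 pairs under 100, highest at 1.33 in the 5776 pairs from 100 to under 300, and then 1.26, 1.16 and 1.12 in the classes from 300, from 1000 and from 3100. The share at least 1.5 times as wide in H69M was 40.9% from 100 to under 300 (39.7 to 42.2) and 5.16% at 3100 or above (4.33 to 6.09). The 2559 pairs at the ceiling had medians of 2273 and 2599 bp. Scores were also mostly higher in H69M. Outside the pairs in which both peaks stood at or above 3100, the H69M score was the higher one in 13850 of 19265 pairs (71.9%, 71.3 to 72.5), with a median ratio of 1.46. Under a mean score of 100 it was higher in 51.8% of pairs, and from 1000 to under 3100 in 82.2%. Both lists start at a score of about 50, so a site below it in either line forms no pair. This limits the differences that the class under 100 can show, and its part in the ratios was not tested.

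**Figure D3:**
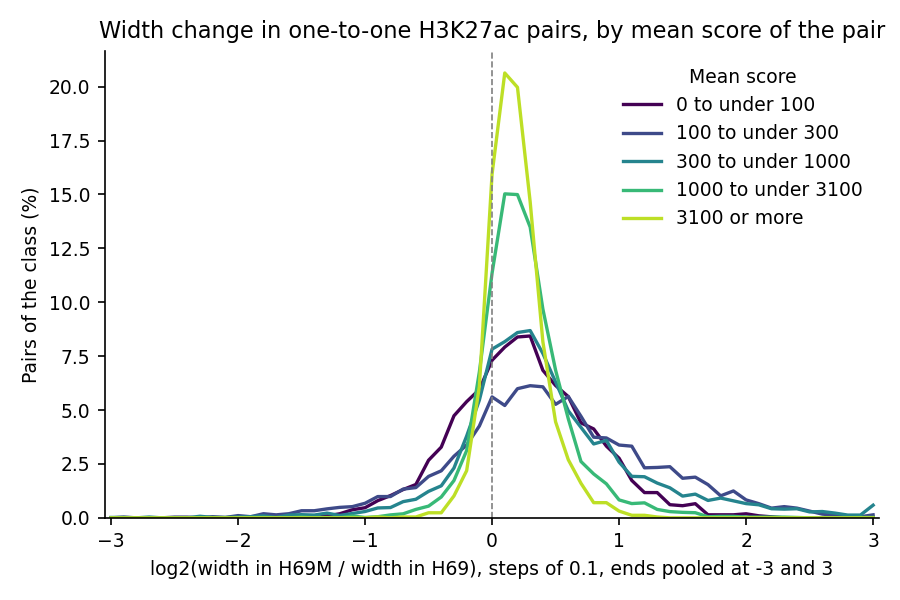
Share of one-to-one pairs (vertical axis, percent of the class) against the log2 ratio of their widths in H69M and H69 (horizontal axis, steps of 0.1), 1 line per class of mean score. All 5 curves peak to the right of the dashed line at 0 (equal width), the pairs at 3100 or above are narrowly spread around a median ratio of 1.12, and the pairs from 100 to under 300 are widely spread, with 40.9% at least 1.5 times as wide in H69M.

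Some single sites departed far from this median. Among the 11778 pairs with a score of 300 or more in both lines, the largest ratio was 9.27, at chr6:2983165-2991228, where the H69M peak of 8064 bp enclosed an H69 peak of 870 bp and the scores were 3100 and 413.9. At chr2:166940056-166944278 the H69M peak had 4223 bp against 566 bp in H69 (ratio 7.46), with scores of 3100 and 354.2. At chr11:65676965-65688093 the widths were 11129 bp in H69M and 2147 bp in H69 (ratio 5.18), and here the H69 score was already 2344. The next ratios were 5.11 at chr9:126117907-126124436 and 5.10 at chr15:29961332-29967951. The H69 peaks at the 5 sites had 566 to 2147 bp and the H69M peaks 4223 to 11129 bp.

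In the opposite direction the departures were smaller. The smallest ratio was 0.295, at chr6:41604997-41608646, where the H69 peak had 3650 bp and a score of 3100 and the H69M peak 1076 bp and a score of 379.4. At chr14:105250015-105255995 an H69 peak of 5981 bp faced an H69M peak of 1936 bp (ratio 0.324), and at chr11:63915092-63919095 one of 4004 bp faced 1365 bp (ratio 0.341). The last 2 were chr14:106345146-106351927 with 6782 bp in H69 and 2328 bp in H69M (ratio 0.343) and chr11:46738246-46742253 with 4008 and 1410 bp (ratio 0.352). The site at chr14:106345146 lies inside 1 of the 2 clusters with 15 lost peaks described further on, and the site at chr6:41604997 lies 36.4 kb from a long run of lost peaks.

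Spacing was described first by the distance from a lost or gained peak to the nearest peak of the other line. For lost peaks the median distance to an H69M peak was 7784 bp (quartiles 1587 and 30384.5), and for gained peaks the median distance to an H69 peak was 18106 bp (3832 and 61330). Within 1000 bp lay 19.6% of the lost peaks and 11.1% of the gained peaks. Within 12.5 kb, a distance often used to join enhancers, lay 58.6% of the lost peaks (57.5 to 59.6) and 42.9% of the gained peaks (42.2 to 43.5). More than 200000 bp from any peak of the other line lay 317 lost peaks (3.68%) and 1898 gained peaks (7.67%). The H69M list is the denser one, which shortens the distances of lost peaks. With equal peak numbers the medians were 10650 bp for lost and 19127 bp for gained peaks, so lost peaks still lay nearer to peaks of the other line.

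Among lost peaks the distance grew with the score. Its median was 6690 bp under a score of 100, 9680.5 bp from 100 to under 300, 13502 bp from 300 to under 1000 and 20368.5 bp in the 54 peaks from 1000 to under 3100. Among gained peaks the median moved less, from 16786 bp under 100 to 20462 bp in the 792 peaks from 1000 to under 3100. The nearest distances did depend on the score, with 12.2% of gained peaks under 100 (11.6 to 12.8) and 5.68% from 1000 to under 3100 (4.17 to 7.53) within 1000 bp of an H69 peak. Of the 90 gained peaks at the ceiling, 37 lay within 12.5 kb of an H69 peak and 28 more than 50000 bp away. The 4 lost peaks at the ceiling all lay beyond 12.5 kb.

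The second measure of spacing was the distance to the nearest other peak of the same line. Gained peaks sat closest to other H69M peaks, with a median of 1548 bp against 5016.5 bp for kept H69M peaks. Within 1000 bp of another H69M peak lay 44.2% of the gained peaks (43.6 to 44.8) and 30.1% of the kept ones (29.6 to 30.7). In H69 the intervals of the classes overlapped at this distance, with 35.5% of lost (34.5 to 36.6) and 35.7% of kept peaks (35.1 to 36.2). With equal peak numbers the H69M shares were 36.9% of gained and 23.2% of kept peaks, and the H69 shares 34.9% of lost and 35.95% of kept peaks. Spacing of up to 1000 bp therefore set gained peaks apart from kept ones in H69M. At that distance the same was not seen for lost peaks in H69. By the median, lost peaks did lie closer to other H69 peaks, at 3100 bp against 4099.5 bp for kept ones. The lower quartiles had the opposite order, with 480 bp for lost and 385 bp for kept peaks. Over 1000 bp and up to 12.5 kb lay 34.3% of lost (33.3 to 35.3) and 29.2% of kept H69 peaks (28.7 to 29.7).

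**Figure D4:**
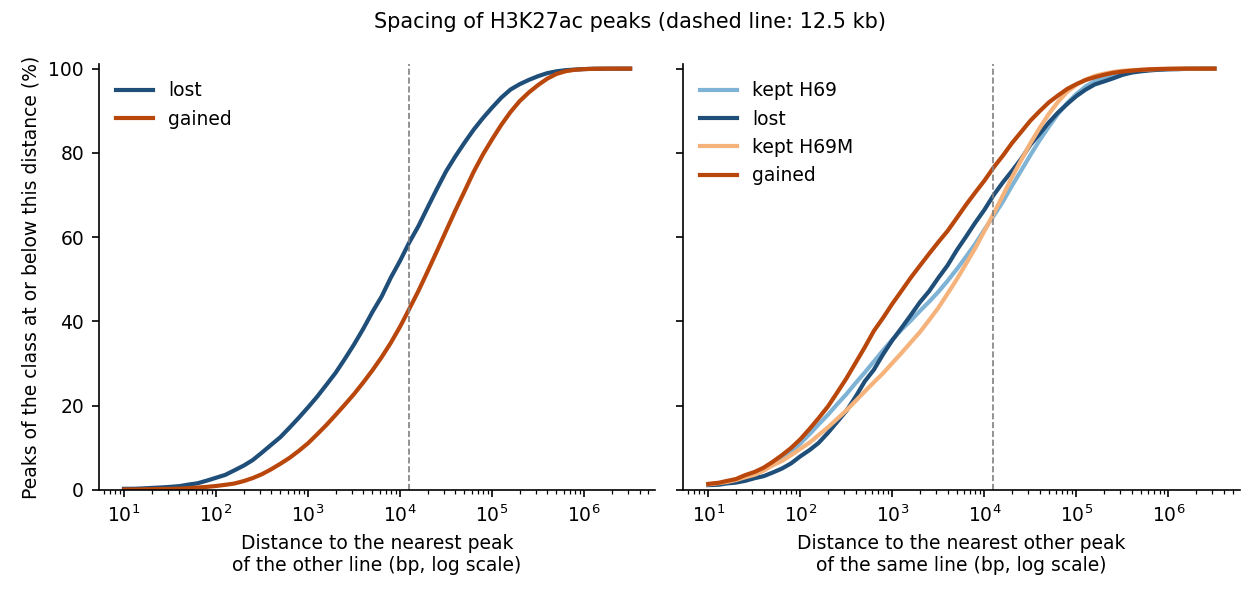
Cumulative share of peaks (vertical axis, percent) against the distance in bp (log scale) to the nearest peak of the other line (left, lost and gained peaks) and to the nearest other peak of the same line (right, all classes). On the left the lost curve lies above the gained curve, with 58.6% and 42.9% at the dashed line of 12.5 kb, and on the right the gained curve is the highest at 1000 bp and at 12.5 kb.

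For clustering, the peaks of both lines were joined over gaps of up to 12.5 kb. This gave 27546 clusters, and overlapping peaks within them were counted as 1 region. Clusters with kept peaks alone numbered 9740 (35.4%), of which 8236 were a single region. Kept peaks with gained ones made up 3887 clusters (14.1%), kept with lost ones 1396 (5.07%), and kept with both 1195 (4.34%). Gained peaks alone made up 8222 clusters (29.8%), lost peaks alone 2681 (9.73%), and gained with lost but without kept peaks 425 (1.54%). Lost and gained peaks together without any kept peak were thus the rarest class over all clusters, but a cluster of 1 region cannot hold both. Against clusters of lost peaks alone, this class numbered 221 to 376 at 2 regions, 188 to 113 at 3 to 5 regions and 16 to 6 at 6 to 10 regions.

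Content changed with size. Of the 15896 clusters of 1 region, 51.8% were kept, 34.4% gained and 13.8% lost. Of the 4579 clusters of 3 to 5 regions, 7.60% held kept peaks alone, 40.6% kept with gained peaks and 20.7% gained peaks alone. Of the 393 clusters of 11 or more regions, 57.8% (52.7 to 62.7) held kept, lost and gained peaks together, 30.8% kept with gained, 8.65% kept with lost and 2.54% gained peaks alone, and 1 held kept peaks alone. More regions also give more chances to hold each class. The long clusters were therefore mostly present in both lines, and no cluster of this size consisted of lost peaks alone. With so many regions, neither this nor their mixed content shows a higher turnover of peaks. When the peaks of each line were joined separately, clusters of 11 or more peaks kept 74.9% of their peaks in H69 and 52.6% in H69M. Over all peaks these shares were 77.5% and 51.6%.

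**Figure D5:**
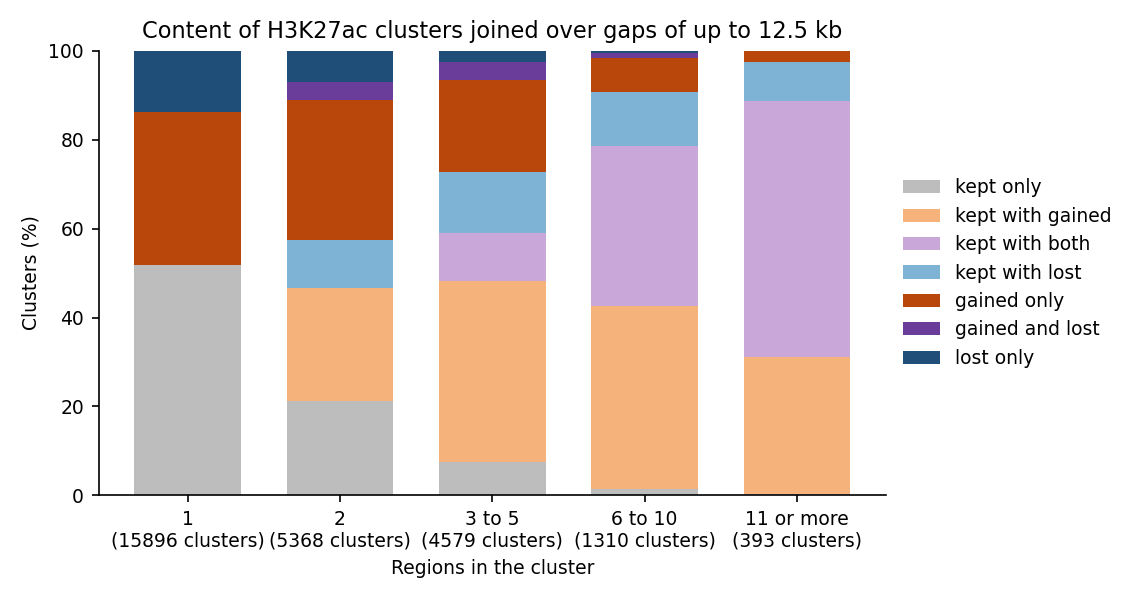
Percent of clusters (vertical axis) by content, for clusters of 1, 2, 3 to 5, 6 to 10 and 11 or more regions (horizontal axis, with the number of clusters). Grey (kept peaks alone) shrinks from 51.8% at 1 region to 1 of 393 clusters at 11 or more, where clusters with kept, lost and gained peaks (light purple) make up 57.8%.

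The clusters of each line alone gave the same view. Of the 13001 single H69 peaks with no other H69 peak within 12.5 kb, 19.99% were lost. Of the 238 H69 clusters of 11 or more peaks, 37 kept every peak, 201 lost some, and none lost all, which allows a share of up to 1.54%. Of the 14936 single H69M peaks, 39.03% were gained, and of the 269 H69M clusters of 11 or more peaks 10 consisted of gained peaks alone. The share of kept peaks in H69 varied little with the size of the cluster, from 80.01% for single peaks to 74.9% in clusters of 11 or more. Within score classes it ranged from 46.7% to 53.97% under 100 and from 74.8% to 77.7% from 100 to under 300. From 300 to under 1000 it was 95.02% for single peaks (94.1 to 95.8) and 91.2% in clusters of 6 to 10 (89.3 to 92.97). In H69M the strong peaks differed more by cluster size. From 300 to under 1000, 75.1% of single peaks were kept (73.4 to 76.7) against 55.1% in clusters of 3 to 5 peaks (53.2 to 56.9), and from 1000 to under 3100 these shares were 96.1% and 84.2%. Isolated strong peaks of H69M were thus present in H69 more often than equally scored peaks in clusters.

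Gained peaks lay in clusters of their own class alone more often than lost peaks did. Of the gained peaks 52.4% lay in clusters of gained peaks alone (51.8 to 53.02), and of the lost peaks 38.8% lay in clusters of lost peaks alone (37.8 to 39.9). With equal peak numbers the shares were 54.5% and 43.8%. Fully alone, without another peak of either line within 12.5 kb, were 22.1% of the gained (21.6 to 22.65) and 25.4% of the lost peaks (24.4 to 26.3). At equal peak numbers these shares were 27.8% and 27.2%. Peaks of the other line on both sides within 12.5 kb flanked 11.7% of the gained and 22.4% of the lost peaks, a measure that again rises with the density of the other list. Clusters of 3 or more peaks of 1 class alone numbered 1056 for gained peaks, with 4105 peaks and up to 16 in a cluster, and 119 for lost peaks, with 410 peaks and up to 8. Equal peak numbers brought these counts to 473 and 201, and the shares of peaks within them to 12.4% of gained and 6.95% of lost peaks. Gained-only clusters outnumbered lost-only ones at every setting tried, while the counts moved by over 1.5 times at some settings. The class with more peaks has more chances to form such clusters. Shares of peaks in clusters of 1 class alone were computed for the main setting and equal peak numbers only.

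The clusters with the most gained peaks beside kept ones differed in how much H69 already carried. At chr4:140696087-140889525, 23 gained peaks joined 23 kept H69 and 16 kept H69M peaks, and the covered length was 17.9 kb in H69 and 47.9 kb in H69M. Here no H69 peak scored above 613, so a weakly marked stretch of 193 kb was listed with longer peaks. At chr22:36719642-36879054, also with 23 gained peaks, coverage was 24.4 and 87.5 kb, and the median score of the kept peaks was 166 in H69 and 2989 in H69M. At chr2:182438761-182525450, 20 gained peaks brought coverage from 8.72 to 29.4 kb. At chr9:16652605-16730775, 20 gained peaks and 1 lost peak brought it from 4.47 to 31.9 kb, and, as in the stretch on chromosome 22, both of these held an H69 peak at the ceiling. At chr15:67356999-67444179, 18 gained peaks stood beside 3 kept H69 peaks, coverage was 4.13 and 41.6 kb, and both kept H69M peaks were at or above the ceiling while the H69 peaks reached 836.

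The clusters with the most lost peaks kept part of their marks. At chr14:106305246-106381521, 15 H69 peaks were lost and 7 kept, none was gained, and coverage was 41.6 kb in H69 and 11.1 kb in H69M. The lost peaks there were weak (median score 83.3), but the kept ones were weaker in H69M too, with a median score of 1363 in H69 and 139 in H69M. At chr16:1118490-1176115, 15 peaks were lost and 2 kept, and coverage was 20.1 and 1.07 kb, the most nearly complete loss of the 5. At chr21:44726974-44883672 coverage was 75.99 and 50.7 kb with 14 lost and 2 gained peaks, and at chr1:3565846-3639623 it was 35.7 and 15.6 kb with 14 lost peaks. At chr6:41455492-41571384 it was 44.3 and 22.4 kb with 13 lost peaks, and this cluster was taken from 4 with 13 because it spans the most sequence. In the clusters on chromosomes 21, 1 and 6, at least 1 kept peak stood at the ceiling in both lines.

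Runs are neighbouring peaks of 1 class with no peak of the other line between them and gaps of at most 50000 bp. Gained peaks formed 12682 runs, of which 57.6% were a single peak and 853 held 5 or more. Lost peaks formed 6031 runs, of which 73.9% were a single peak and 106 held 5 or more. Runs of 5 or more held 24.2% of the gained peaks (23.7 to 24.8) and 7.90% of the lost peaks (7.34 to 8.49). Runs of 10 or more numbered 121 and 8. The class with more peaks has more chances to form runs.

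The gained run with the greatest covered length lay at chr2:135265883-135335426. Its 5 peaks covered 37.02 kb of a span of 69.5 kb. They had 947, 7297, 12644, 12069 and 4063 bp, with scores of 128.9, 3100, 525.2, 3106 and 202.1. The nearest H69 peaks lay 96.5 and 248 kb away, so this was broad H3K27ac in a stretch without any in the H69 list. The peak of 12644 bp had a score of only 525.2, against a median width of 1581 bp for gained peaks of that score class. At chr5:75912885-76169880 a run of 22 peaks covered 34.6 kb of a span of 257 kb, and 5 of its peaks scored 1000 or more. This run began 899 kb from the nearest H69 peak and ended 0.593 kb before one. At chr22:30590423-30711284, 12 peaks covered 33.01 kb with a median score of 1075, the highest median of the 5 runs. At chr5:135331465-135417026, 17 peaks covered 32.4 kb of a span of 85.6 kb, and 6 of them scored 1000 or more. At chr6:11161978-11435206, 21 peaks covered 29.2 kb of a span of 273 kb, and 3 of them scored 1000 or more.

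The longest lost runs covered less length and had lower median scores. The score may not mean the same in both lists, and H69M peaks were wider in most pairs. There were also fewer lost than gained runs to choose from, 6031 against 12682. At chr16:1118490-1169089, 15 peaks covered 18.1 kb with a median score of 98.3 and a highest score of 1039, and they make up all the lost peaks of the cluster named above. At chr18:45535511-45669526, 13 peaks covered 16.6 kb, had a median score of 185 and began 0.145 kb from an H69M peak. At chr6:41645081-41694068, 9 peaks covered 14.1 kb between H69M peaks 1.23 and 0.565 kb away. At chr14:100964947-101039191, 10 peaks covered 11.7 kb, and none scored above 392. At chr1:228753760-228782636, 4 peaks covered 11.04 kb with widths from 1958 to 4543 bp and scores from 51.1 to 139, whereas the median width of lost peaks was 567 bp under a score of 100 and 869.5 bp from 100 to under 300. Each of the 5 lost runs had an H69M peak within 5 kb of an end, while 1 of the 5 gained runs had an H69 peak that near. The H69M list is the denser one, which shortens the distances of lost runs, and for the run on chromosome 16 the distance was 4.97 kb.

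The shares differed between chromosomes. The percent of H69 peaks lost was highest on chromosome 18 (31.3%, 28.5 to 34.2), chromosome 9 (28.6%) and chromosome 6 (28.2%), and lowest on chromosome X (11.9%, 9.82 to 14.3) and chromosome 19 (16.3%). The percent of H69M peaks gained was highest on chromosome 4 (58.5%, 56.3 to 60.7), chromosome 3 (56.8%) and chromosome 5 (56.01%), and lowest on chromosome 19 (27.9%, 25.8 to 30.01) and chromosome 22 (36.3%). On chromosome 22 the lines were nearest in peak number (1112 and 1157) and in the width of one-to-one pairs (median ratio 1.08), yet 27.9% of its H69 peaks were lost. On chromosome 4 the median ratio of pair widths was 1.27, the highest of the 23 chromosomes, at medians of 1003 and 1525 bp. Copy number of the lines is not in the files, and its part in these shares was not tested.

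H3K27me3, the Polycomb mark on the same residue, was read from the lists of the same lines, which hold 21638 peaks in H69 and 37853 in H69M. Lost H3K27ac peaks overlapped an H69M H3K27me3 peak in 288 of 8623 cases (3.34%, 2.97 to 3.74), kept H69 peaks in 346 of 29632 (1.17%, 1.05 to 1.30). Gained peaks overlapped an H69 H3K27me3 peak in 418 of 24739 cases (1.69%, 1.53 to 1.86), kept H69M peaks in 255 of 26352 (0.968%, 0.853 to 1.09). Within their own line, lost peaks overlapped H3K27me3 in 1.02% of cases (0.819 to 1.26) against 0.742% of kept H69 peaks (0.648 to 0.847), and gained peaks in 1.74% (431 peaks, 1.58 to 1.91) against 1.38% of kept H69M peaks (1.24 to 1.53). The H3K27me3 list of H69M is the longer one, and kept peaks of both lines overlapped it more often than the H69 list. The share was 1.17% against 0.742% for kept H69 peaks and 1.38% against 0.968% for kept H69M peaks. Lost peaks also had the higher share against the H69M list, 3.34% against 1.02%. Gained peaks did not show this rise to the same extent, with 1.74% against 1.69%. These overlaps concern few of the lost and gained peaks, and the part of peak width and score in them was not tested.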

How the data were processed

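The data are 4 peak lists, 1 per antibody library of H69 and H69M. No list was used for the input libraries, which were not analysed here. Per the submitters' processing notes, Bowtie2, SAMtools 0.1.19 and the build hg19 were used. Each deposited list gives the position of a peak, a name with the prefix MACS_peak and a score. The version of the caller, its settings and its control are not given in the sources. The files contain peaks without read counts, so depth is unknown, and peak number and width generally grow with depth and enrichment.

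Overlap, distance, gaps and clusters were computed in Python 3.11.15 with numpy 2.4.6 and pandas 2.3.3, and exact (Clopper-Pearson) 95% intervals with scipy 1.17.1. The procedures for overlap, distance, pair width and clusters were tested on simulated lists with known answers. The bridged gaps and the 95% intervals were not part of that test. Peaks on chromosome Y and on other sequences were left out. Coordinates are 1-based, widths count every base, and distances run from edge to edge. For equal peak numbers the 38255 highest scores of H69M were taken, equal scores by greater width.

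Named regions follow a rule: the 5 runs of each class with the greatest covered length, the 5 largest and 5 smallest width ratios among one-to-one pairs with scores of 300 or more, and the 5 clusters with the most gained peaks beside kept ones and with the most lost peaks. Regions, classes and lists were chosen with earlier results of these data known. The gene table at hand lies on GRCh38, so no gene was named and no gene list was used. Alternatives were equal peak numbers, 50% reciprocal overlap, score minimums of 100 and 300, peaks joined over 1000 bp, joining distances of 5000 and 25000 bp, and leaving out peaks within 2000000 bp of each chromosome's largest stretch without peaks.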

Additional observations from a re-analysis of the deposited data

Results flagged for a closer look

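H3K27ac peaks on unplaced or random contigs entered none of the comparisons. The lists hold 26 of them in H69 and 59 in H69M.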

How the results depend on the processing

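The main values were 77.5% of H69 and 51.6% of H69M peaks kept, a covered length ratio of 1.59, a median pair width ratio of 1.20, 42.9% of gained and 58.6% of lost peaks within 12.5 kb of the other line, and 1056 gained-only and 119 lost-only clusters of 3 or more peaks. In that order, equal peak numbers gave 71.5%, 62.2%, 1.42, 1.21, 41.7%, 53.3%, 473 and 201. Scores of 100 or more gave 84.2%, 55.7%, 1.64, 1.19, 35.9%, 48.1%, 598 and 62, and scores of 300 or more gave 89.7%, 61.6%, 1.66, 1.17, 28.2%, 38.7%, 257 and 17. Joining peaks over 1000 bp first gave 79.4% and 57.5% kept, a pair ratio of 1.18, 33.8% and 49.3% within 12.5 kb, and 426 and 41 clusters. Reciprocal overlap of 50% gave 53.7% and 40.2% kept and a pair ratio of 1.17. Leaving out peaks beside the largest peak-free stretches kept the shares within their intervals, the ratios at the same 3 digits and the cluster counts within 1.5 times. Joining distances of 5000 and 25000 bp were run for the cluster counts alone, which stayed within 1.5 times. Reciprocal overlap was run for the kept shares and the pair ratio, and joining peaks for all but the covered length. Wherever they were run, H69 peaks were kept more often, the ratios were above 1 and lost peaks lay nearer to the other line. Higher score minimums and joining leave fewer peaks, which lowers the cluster counts by construction. For the remaining shifts the cause was not tested. No paired analysis was possible because each group holds 1 library. Unknown depth limits every statement on peak number, width and score, and the ceiling limits the ranking of strong peaks.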
